A study of Mus musculus with 57 samples.

Results

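The genes described here encode splicing factors and heterogeneous nuclear ribonucleoproteins (hnRNPs), measured in mouse visual cortex. Members were all genes of the deposited table whose symbol begins with Srsf, Hnrnp, Snrp, Sf3a, Sf3b or Prpf and whose normalised read count averaged at least 10 over all 57 libraries. The symbols matched 65 genes, of which 57 were members, out of 24394 named genes in the table and 10526 that reached the same mean and were tested. Of the 57 members, 11 were Srsf genes (of 11 symbols), 18 were Hnrnp genes (of 20), 11 were Snrp genes (of 12), 8 were Sf3 genes (of 9) and 9 were Prpf genes (of 13). The 8 symbols that missed the minimum included Hnrnpa3, Hnrnpr, Prpf4, Prpf19, Prpf39, Sf3b1 and Snrpn. The lowest mean inside was 11.2, for Hnrnpul1. Sf3b1, the large scaffold subunit of the SF3b complex, averaged 6.79, and Snrpn, an imprinted Sm protein gene of neurons, averaged 1.29. Overlapping genes and copies were searched for members only. Whether reads of the symbols below the minimum were assigned to other genes was therefore not tested.

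Pre-mRNA splicing is carried out by the spliceosome, which is built from small nuclear RNAs, the Sm proteins that wrap them (most Snrp genes), the SF3a and SF3b complexes that help the U2 particle hold the branch point, and the PRP proteins that assemble and drive the machine. SR proteins (Srsf genes) mostly bind exons and favour their inclusion, while hnRNPs coat nascent transcripts and often oppose it, so that the balance of both classes shapes which exons a neuron keeps. Many SR protein and hnRNP genes limit their own messenger RNA through exons that lead to decay. In several tissues splicing regulators are known to follow body temperature and the circadian clock.

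RNA came from the visual cortex of wild-type mice. The labels leave out strain, sex and age. Housing alternated 12 h light with 12 h dark. Collection hours are Zeitgeber times (ZT), counted from when lamps normally came on. In the light arm the lamps came on as usual on the last day, with 3 libraries at ZT18 and 4 at each of 6 earlier times, ZT1, ZT3 and ZT7.5 by day, then ZT11.5, ZT13 and ZT15. In the dark arm the lamps stayed off on that day, with 3 libraries at each of ZT1 and ZT13 and 4 at each of 6 other times, ZT0, ZT3 and ZT7.5, then ZT11.5, ZT15 and ZT18. Libraries were made by MARS-Seq, a protocol that reads the 3′ end of poly(A) RNA, so that values report the amount of a gene's transcripts and not how they were spliced. The labels call samples biological replicates without saying that each is a separate animal, so a p-value here is about the spread among samples. Libraries held 1.64 to 4.31 M (mega) reads, and 0.41% to 0.484% of a library's reads fell on members. Cortical markers were present throughout: Slc17a7, a glutamate transporter of excitatory neurons, ran from 2609 to 5390 and Gad1, an enzyme of inhibitory neurons, from 620 to 1017. The summed markers of choroid plexus, a tissue outside the cortex, ran from 207 to 21598 between libraries, and of 4 blood markers 3 were at 0 in every library while Alas2 ran from 28.6 to 653.

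Members differed in how much their level moved between groups. The group mean of Hnrnpab, an hnRNP of the A/B type, differed by 0.15 on the log2 scale between its highest and lowest of 15 groups. Hnrnpab ran from 673 to 836 with a median of 765 in the dark arm, and from 677 to 850 with a median of 770 in the light arm, so that the arms lay on top of each other. Prpf6, which bridges particles of the tri-snRNP, had a range of group means of 0.15, Sf3b2, a subunit of SF3b, 0.16, Snrpb, a core Sm protein, 0.19, and Prpf8, the protein at the heart of the spliceosome, 0.22. At the other end stood Hnrnpa0 (1.31), Hnrnph2 (1.13), Hnrnpll (1.06), Prpf31 (1.05) and Prpf4b (1.04), of which 3 averaged under 20 and so rested on few reads per library. None of these last 5 passed the limma F test over time in either arm, while DESeq2 called Hnrnpll in the dark arm (adjusted p = 0.028) and limma with terms for replicate pairs called Hnrnpa0 there (adjusted p = 0.037). In bulk tissue, fewer cells of a type and less RNA per cell cannot be told apart, which holds for every value here.

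**Figure D1:**
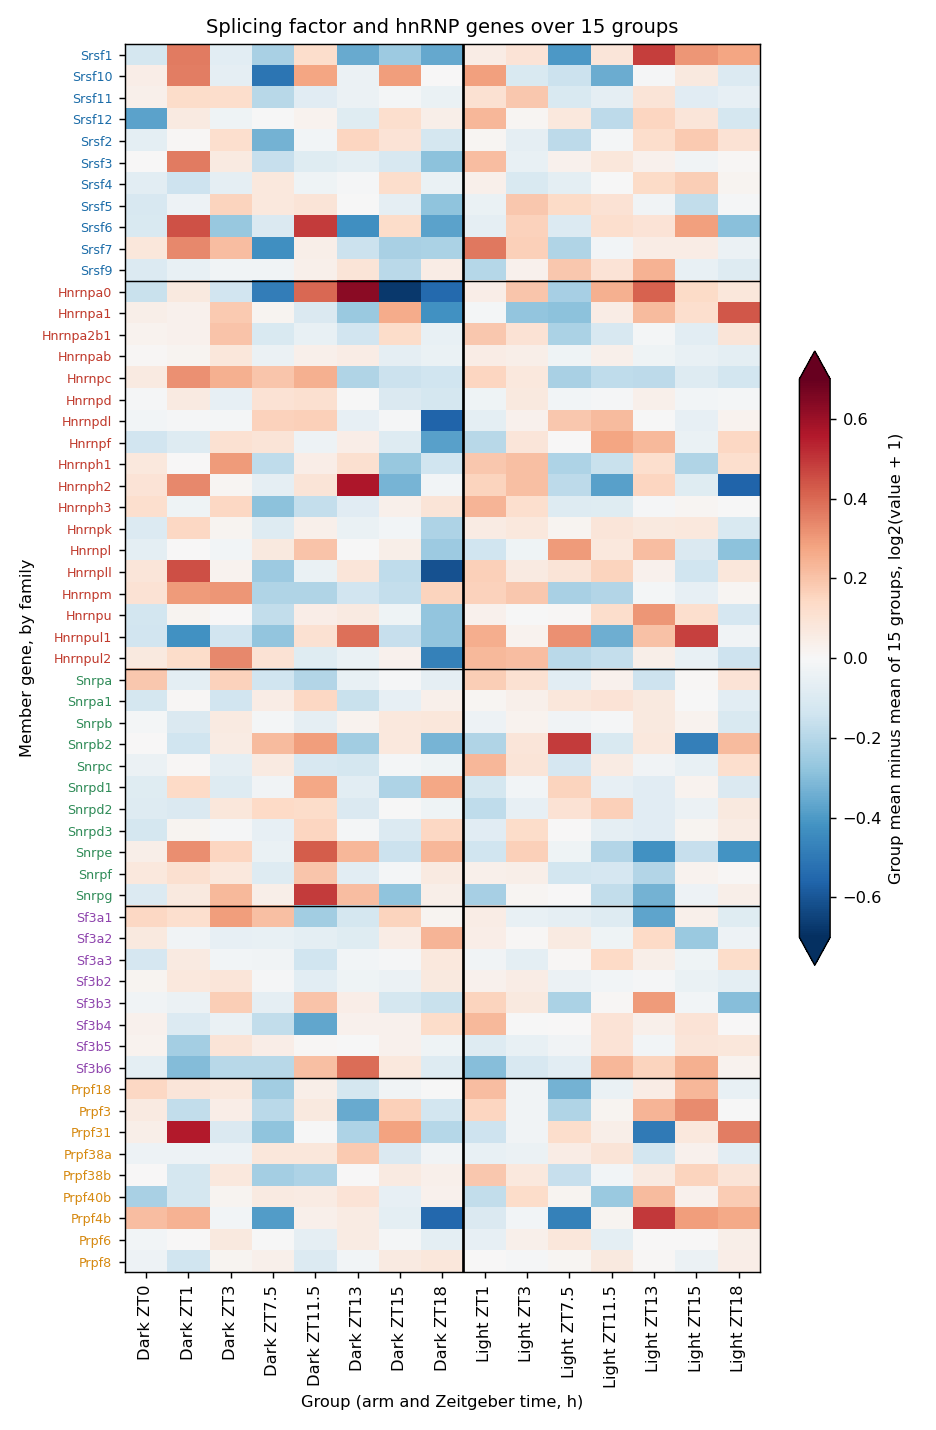
Group means of the 57 members, in rows by family (label colours), over the 8 dark and 7 light groups in columns, as the difference of each group mean of log2(value + 1) from the mean of the 15 groups (colour, capped at 0.7). Rows of Prpf8, Prpf6, Sf3b2 and Hnrnpab are nearly white throughout, and Hnrnpm is red at ZT1 and ZT3 and blue at ZT7.5 and ZT11.5 in both arms.

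The first question was whether members changed over the day within an arm, tested with a moderated F statistic of limma on log2(value + 1) and Benjamini-Hochberg adjustment over all 10526 genes. In the dark arm, 9 of 57 members passed an adjusted p of 0.05 (15.8% of members, where 6.52% of all genes tested passed). The light arm had 5 of 57 (8.77%, against 3.81% of all genes). Without the libraries under 2 M reads these counts were 5 and 3, and the light count fell to 3 without any of 14 single light libraries. Before adjustment, 17 members had a p under 0.05 in the dark arm (24.4% of all genes) and 11 in the light arm (18.8%). By family, 2 of 11 Srsf genes passed in the dark arm and 1 in the light arm, 6 and 3 of 18 Hnrnp genes, 1 and 0 of 11 Snrp genes, 0 and 1 of 8 Sf3 genes, and 0 and 0 of 9 Prpf genes. Hnrnpm, Hnrnph1 and Srsf5 passed in both arms, which is 3 of 9 dark calls and 3 of 5 light calls.

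The sequences around the starts of Hnrnpm, Hnrnph3 and Srsf5 are shown as examples of hnRNP and SR protein genes that passed a test over the day in both arms; Hnrnph1 and Srsf7 did so too and are not shown. They are RefSeq windows of GRCm38.p6, the build of the files (mm10), from 250 bases before to 50 bases after the annotated start, 5′ to 3′ on the gene's strand, with matches to the motifs below in capitals. The gene Hnrnpm lies at chr17:33646233-33686860 on the minus strand, Hnrnph3 at chr10:63014664-63024217 on the minus strand and Srsf5 at chr12:80945504-80950507 on the plus strand in GENCODE M21, so that the windows of Hnrnpm and Hnrnph3 fall inside the longest form GENCODE draws.
Hnrnpm, chr17:33685409-33685708, minus strand: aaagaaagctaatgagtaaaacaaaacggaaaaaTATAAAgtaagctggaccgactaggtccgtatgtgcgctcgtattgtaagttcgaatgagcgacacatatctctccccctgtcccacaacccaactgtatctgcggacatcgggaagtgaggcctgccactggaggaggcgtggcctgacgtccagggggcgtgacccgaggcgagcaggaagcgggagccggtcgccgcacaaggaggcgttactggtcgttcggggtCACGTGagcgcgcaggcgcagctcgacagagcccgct
Hnrnph3, chr10:63023800-63024099, minus strand: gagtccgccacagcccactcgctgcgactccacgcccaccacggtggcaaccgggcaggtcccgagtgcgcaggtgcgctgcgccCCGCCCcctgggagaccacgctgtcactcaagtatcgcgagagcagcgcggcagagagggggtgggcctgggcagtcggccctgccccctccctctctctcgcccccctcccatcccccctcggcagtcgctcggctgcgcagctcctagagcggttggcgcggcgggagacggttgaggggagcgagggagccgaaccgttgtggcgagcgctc
Srsf5, chr12:80945249-80945548, plus strand: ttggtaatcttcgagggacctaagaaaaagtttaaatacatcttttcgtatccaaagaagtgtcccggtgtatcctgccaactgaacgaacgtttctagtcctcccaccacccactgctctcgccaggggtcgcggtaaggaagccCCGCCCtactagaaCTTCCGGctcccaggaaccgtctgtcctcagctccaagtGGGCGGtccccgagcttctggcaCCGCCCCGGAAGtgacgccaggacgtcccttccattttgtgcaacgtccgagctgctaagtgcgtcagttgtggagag

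Of the 57 members, 50 had such a window. Motifs were searched on both strands in the first window listed for each of 27025 genes of the RefSeq table, so other starts of a gene were not counted. The E-box CACGTG, the site of CLOCK and BMAL1 among other factors, was in the Hnrnpm window and in 12.0% of members' windows, against 7.2% of all. The Ets motif CCGGAAG was in the Srsf5 window on both strands, where 1 match overlaps a GC box, and in 36.0% of members' windows against 9.1% of all. The GC box GGGCGG was in 68.0% against 35.9%, CCAAT in 48.0% against 37.9%, the TATA box TATAAA in 12.0% against 14.2%, and the cyclic AMP element TGACGTCA in 4.0% against 1.9%. The D-box TTATGNAA was in 2.0% against 3.5%, the heat shock element in 4.0% against 0.5%, and the NRF1 palindrome in 0.0% against 1.0%. All windows include those of genes that the cortex does not express, and a match is a description of letters, not of binding.

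Hnrnpm encodes an hnRNP that binds GU-rich RNA and regulates exon choice, and it had the smallest p of all members in the dark arm (adjusted p = 3.7e-05, limma F test). Its normalised read counts in the dark arm were 481, 408, 422 and 360 at ZT0, 428, 485 and 522 at ZT1, and 485, 419, 532 and 497 at ZT3. They were 339, 326, 323 and 353 at ZT7.5, 369, 341, 302 and 333 at ZT11.5, 355, 333 and 373 at ZT13, 329, 310, 352 and 399 at ZT15, and 401, 419, 452 and 463 at ZT18. Each of the 7 libraries of ZT1 and ZT3 was thus above each of the 8 of ZT7.5 and ZT11.5, and the ZT18 libraries were again above those afternoon ones. Light-arm counts (adjusted p = 0.012) were 430, 441, 439 and 424 at ZT1, 481, 462, 434 and 395 at ZT3, 292, 333, 334 and 374 at ZT7.5, and 351, 332, 313 and 350 at ZT11.5. They were 346, 310, 471 and 431 at ZT13, 370, 379, 355 and 387 at ZT15, and 388, 363 and 428 at ZT18. Here too no morning library overlapped an afternoon one, while the ZT13 libraries spread widely. A 24 h cosine fitted Hnrnpm with a peak at ZT23.1 and a peak-to-trough difference of 0.50 (log2) in the dark arm, and at ZT22.4 and 0.40 in the light arm (adjusted p = 5.3e-05 and 0.017, limma). Sampling covered 18 h, so peak times rest on the assumed period. The light arm's F test for Hnrnpm did not pass when only the light groups were fitted (adjusted p = 0.062).

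Because Hnrnpm was high in the morning and low in the afternoon, ZT1 and ZT3 were set against ZT7.5 and ZT11.5 in each arm, a comparison chosen after seeing the data and over libraries that the F tests had used. In the dark arm 4 members were higher in the morning and 0 lower (7.02% of members called, against 3.93% of all genes, of which 1.41% higher and 2.53% lower). The light arm had 6 higher and 2 lower (14.0% of members, against 4.49% of all genes, of which 2.26% higher and 2.23% lower). The arms share no library in this comparison. All 9 members called in an arm had the same sign in the other, and 43 of 57 members did. The share of all genes with the same sign in both arms was not computed, so these counts do not set members apart. The median of members was 0.05 in each arm, where that of all genes was 0.0039 in the dark arm and 0.0030 in the light arm (log2).

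Among Hnrnp genes, Hnrnpm was higher in the morning by 0.51 ± 0.07 (SE, log2) in the dark arm and 0.39 ± 0.07 in the light arm (adjusted p = 2.2e-06 and 1.6e-04, limma). Within replicates 1 and 2 alone these differences were 0.40 and 0.47, and within replicates 3 and 4 they were 0.66 and 0.30. The comparison was chosen from the course of Hnrnpm in these same libraries. Neither its p-values nor its differences within replicates therefore test Hnrnpm anew. Hnrnph3, a small relative of hnRNP H, was higher by 0.28 ± 0.07 and 0.27 ± 0.06 (adjusted p = 0.0070 and 0.0071, limma). Its dark-arm counts were 231, 211 and 207 at ZT1 and 240, 248, 259 and 231 at ZT3, against 200.9, 161, 180 and 185 at ZT7.5 and 180, 203, 215 and 193 at ZT11.5. Light-arm counts of Hnrnph3 were 306, 265, 227 and 249 at ZT1 and 235, 238, 231 and 257 at ZT3, against 211, 178, 226 and 219 at ZT7.5 and 197, 214, 198 and 225 at ZT11.5. The light-arm periods did not overlap, and in the dark arm the lowest morning libraries, 2 of ZT1, fell within the afternoon range.

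Hnrnph1 encodes hnRNP H1, which binds runs of G. Its light-arm counts were 148 to 246 with a median of 225 in the 8 morning libraries, and 143 to 174 with a median of 163 in the 8 afternoon ones. Only Light ZT1 replicate 3, at 148, fell into the afternoon range. The difference was 0.39 ± 0.09 in the light arm (adjusted p = 0.0081, limma) while the dark arm had 0.22 ± 0.10 (adjusted p = 0.22, not passed). Its F tests gave adjusted p = 0.044 in the dark arm and 0.043 in the light arm, and each was lost when any of 18 single libraries was left out. Hnrnpul2, a relative of hnRNP U, was higher by 0.40 ± 0.12 in the light arm (adjusted p = 0.042) and had 0.22 ± 0.13 in the dark arm (adjusted p = 0.34). Hnrnpul2 lost the light-arm call without any of 10 single libraries and its dark-arm F call (adjusted p = 0.043) without any of 14.

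Hnrnpl, whose protein binds CA-rich RNA, went the other way and led the light arm's F test (adjusted p = 0.0040). Its light-arm counts were 339, 298, 230 and 345 at ZT1, 336, 352, 335 and 276 at ZT3, 446, 448, 372 and 367 at ZT7.5, and 338, 335, 368 and 350 at ZT11.5. They were 368, 351, 422 and 397 at ZT13, 294, 276, 331 and 335 at ZT15, and 262, 266 and 283 at ZT18. All 4 ZT7.5 libraries were above all libraries of ZT1, ZT3, ZT15 and ZT18. In the dark arm the highest means of Hnrnpl were 379 ± 28.3 (SD, n = 4) at ZT11.5 and the lowest 277 ± 8.27 (n = 4) at ZT18, and the F test there did not pass. The 24 h fit put the light-arm peak at ZT8.6 with a peak-to-trough difference of 0.62 (log2, adjusted p = 0.0011, limma) and the dark-arm peak at ZT8.5 with 0.33 (adjusted p = 0.076). Its morning difference was -0.27 ± 0.08 in the light arm (adjusted p = 0.028) and -0.14 ± 0.08 in the dark arm (adjusted p = 0.35). The light-arm morning call of Hnrnpl was lost when only the groups compared were fitted (adjusted p = 0.070) and without the libraries under 2 M reads (adjusted p = 0.055). It was also lost without Light ZT1 replicate 3, Light ZT3 replicate 4, Light ZT7.5 replicate 1 or 2, or Light ZT11.5 replicate 3 (adjusted p up to 0.11).

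**Figure D2:**
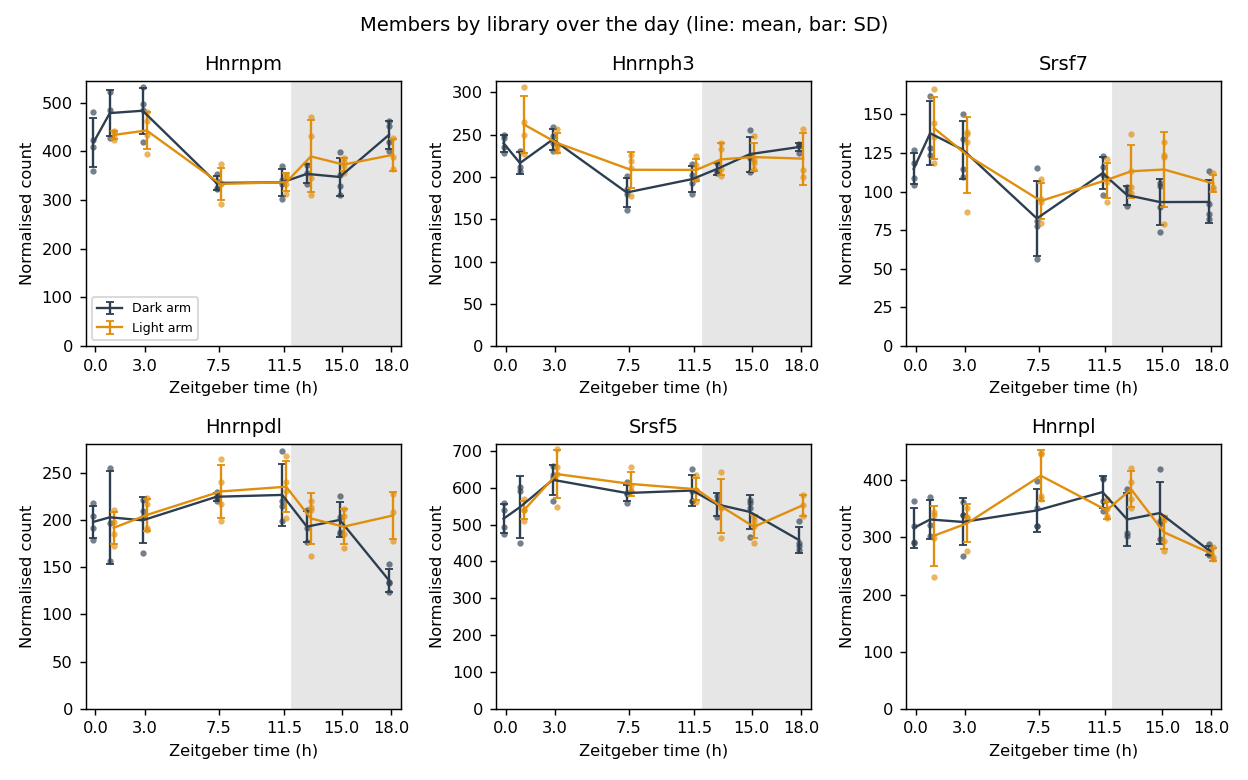
Normalised read counts (y axis, from 0) of 6 members over Zeitgeber time (x axis, h), with 1 point per library, lines through group means and bars of 1 SD, for the dark arm (dark) and the light arm (orange); grey marks the hours of usual darkness. Hnrnpm, Hnrnph3 and Srsf7 are high at ZT1 and ZT3 in both arms, and the 4 dark-arm libraries of Hnrnpdl at ZT18 lie between 124 and 153.

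Among SR proteins, Srsf7, which binds exonic enhancers and also acts in poly(A) site choice and mRNA export, was also higher in the morning than in the afternoon. Its dark-arm counts were 162, 128 and 123 at ZT1 and 150, 115, 109 and 134 at ZT3, against 77.6, 80.7, 56.5 and 115 at ZT7.5 and 98.0, 111, 123 and 116 at ZT11.5. Its light-arm counts were 118, 145, 135 and 166 at ZT1 and 137, 138, 87.0 and 132 at ZT3, against 79.4, 108, 94.9 and 93.5 at ZT7.5 and 93.4, 109, 121 and 106 at ZT11.5. The morning and afternoon ranges overlapped in both arms. The morning difference of Srsf7 was 0.47 ± 0.12 in the dark arm and 0.38 ± 0.11 in the light arm (adjusted p = 0.011 and 0.034, limma). The dark call was lost without Dark ZT1 replicate 1 (adjusted p = 0.055), and the light call without any of 9 single libraries. Srsf3, the smallest SR protein and a factor in mRNA export, was higher by 0.34 ± 0.10 in the dark arm (adjusted p = 0.049) and had 0.03 ± 0.10 in the light arm (adjusted p = 0.91). The dark call of Srsf3 was lost with a replicate block (adjusted p = 0.060), with no filter on low values (adjusted p = 0.082) and without any of 8 single libraries (adjusted p up to 0.13). Without Dark ZT1 replicate 1 the dark-arm count of calls fell from 4 to 2, leaving Hnrnpm and Hnrnph3.

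Hnrnpc, an hnRNP that binds runs of U in nascent RNA, was higher in the light-arm morning by 0.31 ± 0.10 (adjusted p = 0.044, limma), a call lost without any of 12 single libraries, and had 0.06 ± 0.10 in the dark arm (adjusted p = 0.80). In the Snrp family the 1 call of this comparison was a fall. Snrpd2, a core Sm protein, was lower in the light-arm morning by 0.25 on the log2 scale (log2 difference -0.25 ± 0.07, adjusted p = 0.033), with -0.14 ± 0.08 in the dark arm (adjusted p = 0.31). The call of Snrpd2 was lost with no filter on low values (adjusted p = 0.057) and without any of 7 single libraries (adjusted p up to 0.085). No Sf3 or Prpf gene passed in either arm. Those nearest were Prpf38b, a PRP38 family protein, with 0.22 ± 0.07 in the light arm (adjusted p = 0.055) and 0.20 ± 0.07 in the dark arm (adjusted p = 0.11), and Sf3b3, a scaffold of SF3b, with 0.22 ± 0.09 in the light arm (adjusted p = 0.14). The light-arm count of 8 calls fell to 4 without Light ZT3 replicate 1, Light ZT3 replicate 2 or Light ZT7.5 replicate 1, and to 5 without Light ZT1 replicate 4, Light ZT7.5 replicate 2 or Light ZT11.5 replicate 2, 3 or 4.

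Markers of other cells moved at the same hours. All 5 oligodendrocyte markers (Mbp and Mog among them) were lower in the morning in both arms, with medians of -0.50 in the dark arm and -0.42 in the light arm (log2). Their summed level ran from 13577 to 19235 in the dark-arm morning and from 18625 to 21744 in the afternoon. In the light arm it ran from 13142 to 21873 in the morning and from 20859 to 26537 in the afternoon. Of 5 microglia markers tested, 2 were lower in the dark-arm morning and 0 in the light-arm morning. The part of these shifts in the members' differences was not tested. Over the whole dark day, 5 of 5 oligodendrocyte markers passed the F test, and 3 of 5 over the light day. Heat shock genes moved too: of 15 tested, 5 were higher and 1 lower in the dark-arm morning, and 6 higher and 0 lower in the light-arm morning. Cirbp, a cold-inducible RNA-binding protein, was lower by 1.02 and 1.13 on the log2 scale (log2 differences -1.02 ± 0.12 and -1.13 ± 0.12, adjusted p = 7.7e-08 and 1.9e-09, limma). Rbm3, the other cold-inducible gene listed, did not pass. It had -0.29 ± 0.21 in the dark arm and -0.41 ± 0.20 in the light arm (adjusted p = 0.49 and 0.27, limma).

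**Figure D3:**
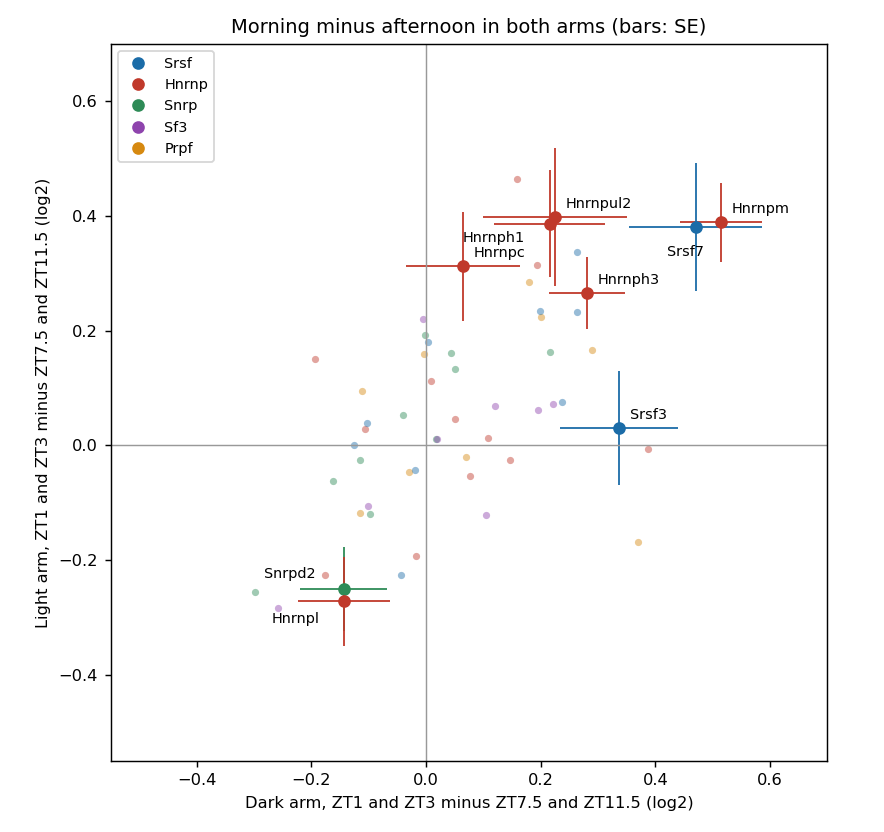
Difference of ZT1 and ZT3 from ZT7.5 and ZT11.5 on the log2(value + 1) scale in the dark arm (x axis) and the light arm (y axis) for 57 members, coloured by family. Named points passed in at least 1 arm and carry bars of 1 SE; all 9 lie in the quadrants where both arms have the same sign, with Hnrnpm at 0.51 and 0.39.

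Some members were higher by day than by night. Srsf5, an SR protein gene known from rat liver as induced by insulin, had normalised read counts of 560 to 660 with a median of 588 in the 12 dark-arm libraries of ZT3, ZT7.5 and ZT11.5, and of 431 to 578 with a median of 520 in the 11 of ZT13, ZT15 and ZT18. Light-arm day libraries ran from 548 to 705 with a median of 599, and the night from 450 to 643 with a median of 524. Day and night overlapped in both arms. Its night minus day difference was -0.22 ± 0.05 in the dark arm and -0.21 ± 0.05 in the light arm (adjusted p = 0.0094 and 0.028, limma). Its limma F test passed in the dark arm (adjusted p = 0.0092) and in the light arm (adjusted p = 0.048). The dark-arm F call was lost without the libraries under 2 M reads. The light-arm F call was lost in 5 of 10 settings and without any of 21 single libraries. These settings were TMM scaling, no filter on low values, edgeR, only the groups compared, and the libraries under 2 M reads left out. The light-arm night difference was lost without Light ZT3 replicate 1, Light ZT11.5 replicate 1, Light ZT13 replicate 4 or Light ZT18 replicate 3, with adjusted p up to 0.071.

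Night minus day called 3 of 57 members lower and 0 higher in the dark arm (5.26%, against 2.52% of all genes, of which 0.798% lower and 1.72% higher), and 1 lower and 0 higher in the light arm (1.75%, against 1.03%, of which 0.532% lower and 0.494% higher). Besides Srsf5 the dark-arm calls were Hnrnpc and Hnrnpdl. Hnrnpc in the dark arm ran from 149 to 204 with a median of 176 by day and from 109 to 164 with a median of 133 by night, a difference of -0.40 ± 0.08 (adjusted p = 0.0035, limma). Light-arm values of Hnrnpc ran from 113 to 173 by day and from 89.9 to 177 by night, with a difference of -0.02 ± 0.08 (adjusted p = 0.94). The difference between the arms was 0.37 ± 0.11 and did not pass (adjusted p = 0.35), and 0 members passed that test by limma, edgeR or DESeq2 (0.057% of all genes), with 6 at an unadjusted p under 0.05 (7.74%). The 3 dark-arm calls were all lost, leaving 0, without the libraries under 2 M reads, 5 of which were dark-arm night libraries. The 3′ end of Hnrnpc is shared with 2 annotated copies, and its counts are uncertain to that extent.

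Hnrnpdl encodes hnRNP D-like, a relative of AUF1 whose gene carries a decay-inducing exon. Its dark-arm counts were 218, 204, 191 and 178 at ZT0, 255, 197 and 156 at ZT1, 210, 202, 165 and 221 at ZT3, 225, 230, 220 and 223 at ZT7.5, and 273, 220, 198 and 214 at ZT11.5. They were 210, 191 and 177 at ZT13, 225, 184, 203 and 187 at ZT15, and 153, 124, 134 and 133 at ZT18. The 4 ZT18 libraries were below every other dark-arm library. The dark-arm F test gave adjusted p = 6.1e-04, and night minus day was -0.31 ± 0.07 (adjusted p = 0.0077, limma). Night minus day of Hnrnpdl in the light arm was -0.16 ± 0.07 (adjusted p = 0.29). The F call of Hnrnpdl held with every single library left out (adjusted p up to 0.0085).

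Snrpd1, a core Sm protein, had the third smallest p of the dark-arm F test (adjusted p = 0.0024). Its dark-arm means were 518 ± 29.5 (SD, n = 4) at ZT11.5 and 518 ± 48.6 (n = 4) at ZT18, with 371 ± 41.6 (n = 4) between them at ZT15. No 24 h rhythm was called for it. The 3′ end of Snrpd1 is shared with 1 annotated copy. In the Sf3 family, Sf3b3 passed the light-arm F test (adjusted p = 0.019), with 122, 129, 142 and 148 at ZT13 and 85.7, 93.6 and 87.8 at ZT18. The call was lost when only the light groups were fitted (adjusted p = 0.072). Sf3b3 overlaps Cog4 on the opposite strand, and whether the counting used strand is not given. A 24 h rhythm was called for 6 members in the dark arm (10.5% of members, against 5.89% of all genes) and 3 in the light arm (5.26%, against 3.14%). Besides Hnrnpm, the dark-arm fits peaked at ZT21.0 for Hnrnph3, at ZT5.2 for Hnrnpc, at ZT5.3 for Hnrnpul2, at ZT7.2 for Srsf5 and at ZT7.4 for Hnrnpdl, with peak-to-trough differences of 0.39, 0.47, 0.52, 0.40 and 0.60 (log2). The dark-arm rhythm calls of Srsf5 and Hnrnpul2 were lost without the libraries under 2 M reads. The light-arm calls were Hnrnpl, Hnrnpm and Srsf9, an SR protein with a short arginine-serine tail. Srsf9 counted 263, 260, 243 and 228 at ZT1, 300, 287, 304 and 277 at ZT3, 387, 366, 307 and 256 at ZT7.5, 309, 316, 282 and 316 at ZT11.5, 292, 306, 318 and 457 at ZT13, 269, 292, 303 and 239 at ZT15, and 262, 281 and 260 at ZT18. Its fit peaked at ZT9.4 with a difference of 0.44 (adjusted p = 0.034, limma), and the call was lost without any of 5 single libraries. In the dark arm Srsf9 had a difference of 0.07 (adjusted p = 0.86).

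Of the genes fixed for naming, Hnrnpu, which encodes a large nuclear scaffold hnRNP, did not pass over time in the dark arm (adjusted p = 0.31, limma) or the light arm (adjusted p = 0.30). Prpf8 ran from 485 to 689 in the dark arm and from 541 to 664 in the light arm, with adjusted p = 0.32 and 0.93. Next below the threshold in the dark arm were Hnrnpll (adjusted p = 0.065), an hnRNP L relative, and Srsf3 (adjusted p = 0.073). In the light arm they were Srsf9 (adjusted p = 0.060), Prpf18 (adjusted p = 0.073), a factor of the second splicing step, and Hnrnph3 (adjusted p = 0.099), followed by Prpf38b (adjusted p = 0.18) and Snrpd2 (adjusted p = 0.20).

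The second question was what light on the day of collection did at a given hour. At none of 7 times did a member pass (limma, adjusted p of 0.05). Of all genes, 0.257% were called at ZT1, 0.124% at ZT3, 0.0% at ZT7.5, 0.152% at ZT11.5, 0.038% at ZT13, 0.0% at ZT15 and 0.0% at ZT18. At an unadjusted p under 0.05 there were 5 members at ZT1 (4.64% of all genes), 0 at ZT3 (6.94%), 4 at ZT7.5 (5.82%), 9 at ZT11.5 (8.02%), 5 at ZT13 (8.27%), 4 at ZT15 (4.41%) and 9 at ZT18 (9.16%). Of the other tools, edgeR and DESeq2 on recovered reads also called 0 at each time. The light was seen in other genes at some of these hours. At ZT1, 9 of 10 immediate-early genes, which neuronal activity induces, were higher, with a median of 2.05 (log2), where the median of members was -0.04. Of these 10 genes, 5 were called higher at ZT3 and 9 at ZT11.5. At ZT7.5 (median 0.57), ZT13, ZT15 and ZT18, 0 were called. A missed threshold does not show that values did not differ. The 95% interval of the difference lay within 0.5 (log2) on either side of 0 for 35 of 57 members at ZT1, 44 at ZT3, 40 at ZT7.5, 35 at ZT11.5, 34 at ZT13, 40 at ZT15 and 32 at ZT18.

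The member nearest to the threshold was Hnrnpdl at ZT18, with 153, 124, 134 and 133 in the dark arm and 227, 208 and 178 in the light arm. The arms did not overlap, and the difference was 0.58 ± 0.13 (adjusted p = 0.072, limma). Snrpd1 followed at the same hour, with 458, 504, 540 and 572 in the dark and 403, 392.5 and 403 in the light (-0.37 ± 0.11, adjusted p = 0.30). At ZT18, 10 of 57 members did not overlap between arms (17.5%, against 8.38% of all genes), 6 of them higher and 4 lower in the light arm. Dark ZT18 replicates 1 and 4 held 1.87 and 1.99 M reads, while light-arm libraries of that hour held 2.38 to 3.20 M. The part of depth was not tested. The smallest p at other hours belonged to Prpf38b at ZT1 (0.31 ± 0.11, adjusted p = 0.60), Hnrnpa1, a classical splicing silencer, at ZT3 (-0.46 ± 0.25, adjusted p = 0.76), Hnrnpc at ZT7.5 (-0.42 ± 0.13, adjusted p = 0.73), Prpf3, of the U4/U6 particle, at ZT13 (0.59 ± 0.20, adjusted p = 0.36) and Snrpd1 at ZT15 (0.24 ± 0.10, adjusted p near 1). At the other 6 times the members that did not overlap were 3 at ZT1 (5.58% of all genes), 2 at ZT3 (4.42%), 3 at ZT7.5 (4.01%), 7 at ZT11.5 (6.4%), 4 at ZT13 (6.73%) and 3 at ZT15 (2.23%).

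At ZT11.5, at the end of the lit day, 4 of 11 Snrp genes, all Sm protein genes, were lower in the light arm at an unadjusted p under 0.05. None passed the adjusted test. In either direction, 8.02% of all genes had such a p (limma), as had 2 of 8 Sf3, 1 of 18 Hnrnp, 1 of 9 Prpf and 1 of 11 Srsf genes. Snrpd1 counted 512, 486, 517 and 557 in the dark and 396, 410, 444 and 403 in the light (-0.33 ± 0.10, adjusted p = 0.24). Snrpg counted 88.4, 80.1, 116 and 133 in the dark and 84.7, 63.4, 62.8 and 50.6 in the light (-0.66 ± 0.22, adjusted p = 0.30). Snrpf had -0.31 ± 0.10 (adjusted p = 0.30) and Snrpe -0.63 ± 0.23 (adjusted p = 0.38). These 4 Sm proteins are parts of the ring around small nuclear RNAs, the 3′ ends of Snrpd1 and Snrpe are shared with annotated copies, and Snrpd1 and Snrpf did not overlap between arms at that hour. Of the 11 Snrp members 7 were below 0 and 4 above, up to 0.23, with a median of -0.21, while that of the 57 members was 0.0029 and that of all genes -0.0015. At ZT7.5 the order was the opposite for Snrpd1 (0.18 ± 0.10). Snrpd1 led the test of a light-dark difference that varies over time (adjusted p = 0.055). In that test 0 members passed by limma (0.181% of all genes), with 4 members at an unadjusted p under 0.05 (6.87% of all genes), and 0 by edgeR, while DESeq2 called Snrpd1 (adjusted p = 0.0038). Limma also called Snrpd1 when any of 12 single libraries was left out. After Snrpd1 came Hnrnpdl and Hnrnpa1 (adjusted p = 0.56 each), Hnrnpul1 and Hnrnpc (0.72 each), then Prpf31, Sf3b3, Hnrnpl, Srsf1 and Snrpg (0.72 to 0.77).

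**Figure D4:**
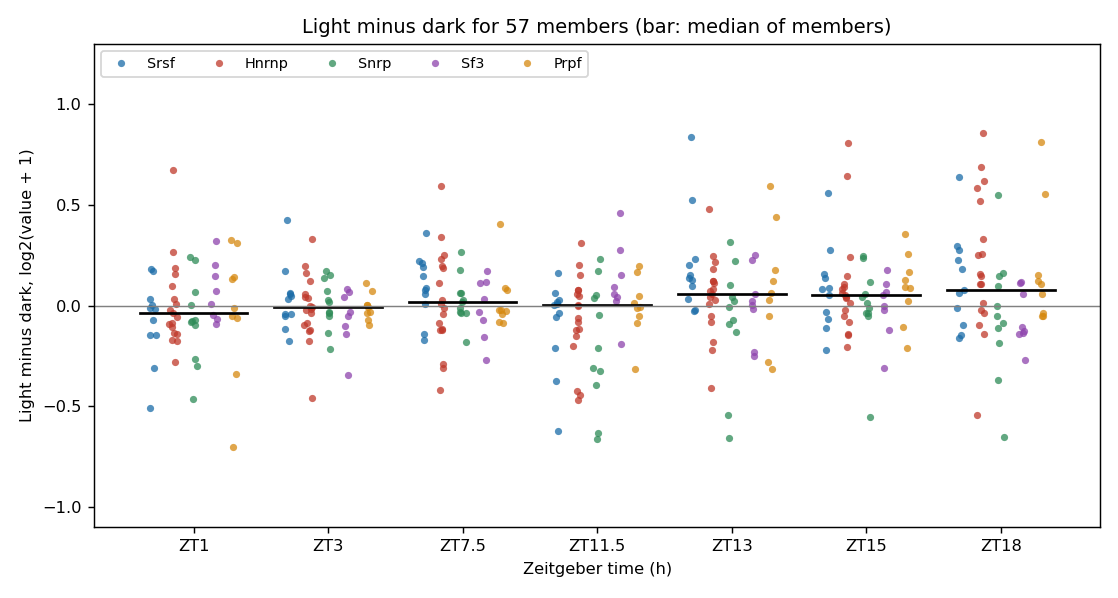
Light minus dark difference on the log2(value + 1) scale (y axis) for each of 57 members at 7 Zeitgeber times (x axis), coloured by family, with a bar at the median of members. Medians stay between -0.04 and 0.08, and at ZT11.5 the Snrp points have a median of -0.21, with 7 below 0 and 4 above.

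Averaged over ZT1, ZT3, ZT7.5 and ZT11.5, 1 member passed, Hnrnpc, which was lower in the light arm (1.75% of members, against 0.903% of all genes, of which 0.779% higher and 0.124% lower). It ran from 149 to 204 with a median of 179 in 15 dark libraries and from 113 to 182 with a median of 151 in 16 light libraries, so that the arms overlapped. The difference was -0.30 ± 0.07 (adjusted p = 0.013, limma). Within replicates 1 and 2 it was -0.13 ± 0.09, and within replicates 3 and 4 it was -0.46 ± 0.08. A limma fit also let replicates 3 and 4 differ from replicates 1 and 2 within each arm. Its light minus dark difference refers to the level of replicates 1 and 2, and there the call was lost (adjusted p = 0.63). That fit does not test the average over all replicates. The other families' smallest p belonged to Prpf38b (0.15 ± 0.05, adjusted p = 0.20), Sf3b4 (0.25 ± 0.09, adjusted p = 0.20), Snrpg (-0.30 ± 0.11, adjusted p = 0.23) and Srsf9 (0.05 ± 0.06, adjusted p = 0.83). Of the 57 intervals, 54 lay within 0.5 of 0.

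Averaged over ZT13, ZT15 and ZT18, when both arms were in darkness, 0 members passed by limma, edgeR or DESeq2 (0.0285% of all genes, of which 0.019% higher and 0.0095% lower), with 9 members at an unadjusted p under 0.05 (8.52%). Srsf1, the founding SR protein, was nearest, with 0.68 ± 0.18 (adjusted p = 0.15), at counts of 8.13 to 16.2 in 11 dark libraries and 13.8 to 22.7 in 11 light libraries. At this level few reads stand behind each value. Snrpe had -0.44 ± 0.14 (adjusted p = 0.29), Hnrnpdl 0.20 ± 0.07 (adjusted p = 0.40), Prpf4b, a kinase of the tri-snRNP, 0.54 ± 0.20 (adjusted p = 0.43) and Sf3a2, a subunit of SF3a, -0.12 ± 0.09 (adjusted p = 0.75). In that average 41 of 57 members were above 0, against 5260 of all 10526 genes. The median of members was 0.05, where the median of all genes was -4.6e-05. By family, 10 of 11 Srsf, 15 of 18 Hnrnp, 7 of 9 Prpf, 4 of 8 Sf3 and 5 of 11 Snrp genes were above 0. Members were measured in the same libraries, so these counts are not of separate observations. Depth was uneven between the arms. Libraries under 2 M reads were Dark ZT13 replicates 2 and 3, Dark ZT15 replicate 4, Dark ZT18 replicates 1 and 4, and Light ZT15 replicate 3. The part of depth in these counts was not tested.

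Splicing genes outside the 5 families were tested in the same fit. In the dark-arm F test 1 of 63 genes of the snRNP and spliceosome core, 4 of 30 SR-related proteins and kinases, 7 of 48 other splicing regulators and 2 of 21 genes of the exon junction complex and mRNA export passed, where 6.52% of all genes did. The counts in the light arm were 1, 4, 3 and 0 in the same order, where 3.81% of all genes passed. Sfpq, a paraspeckle protein related to NONO, was higher in the morning by 0.52 ± 0.08 in the dark arm and 0.53 ± 0.07 in the light arm (adjusted p = 9.2e-06 and 2.7e-06, limma). Tra2a, a splicing activator of the SR type, was higher by 0.54 ± 0.10 and 0.62 ± 0.10 (adjusted p = 3.8e-04 and 2.1e-05), Snrnp48, a protein of the minor spliceosome, by 0.53 ± 0.10 and 0.43 ± 0.10, and Arglu1 by 0.48 ± 0.12 and 0.61 ± 0.12. Rsrp1, an arginine- and serine-rich protein gene, was higher in the night by 0.44 ± 0.08 and 0.45 ± 0.08 (adjusted p = 0.0026 and 0.0015). With light, the only call among these 4 lists was Khsrp in the daytime average, lower by 0.44 on the log2 scale (log2 difference -0.44 ± 0.11, adjusted p = 0.022).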

How the data were processed

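Visual cortex RNA of 57 libraries (30 in the dark arm, 27 in the light arm, 15 groups) was measured by MARS-Seq. The deposited table holds the signal of each gene as the authors' normalised read counts, that is read counts scaled by 1 size factor for each library. Per the submitters' processing notes, cutadapt, STAR 2.5.2b, DESeq2 and the mm10 genome were used; the annotation, the handling of molecular identifiers, the strand setting and any batch are not stated in these sources. Of 24421 rows, 27 carried dates in place of gene symbols (0.294% to 0.363% of reads) and were left out. Reads were recovered by dividing each column by its smallest step, and 100.0% of values in every library came out whole within 0.01. Libraries then held 1.64 to 4.31 M reads, with a median of 2.76 M and 7 libraries under 2 M.

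Because the values are normalised, limma 3.58.1 in R 4.3.3 was fitted with a trend to log2(value + 1) of 10526 genes with a mean of at least 10, over all 15 groups, with Benjamini-Hochberg adjustment over those genes. Fold changes are on that scale, which understates changes of low genes. Contrasts were light minus dark at each shared time and over ZT1 to ZT11.5 and ZT13 to ZT18, F tests over time in each arm and of a light-dark difference that varies over time, night (ZT13, ZT15, ZT18) minus day (ZT3, ZT7.5, ZT11.5), and a 24 h cosine. ZT1 and ZT3 minus ZT7.5 and ZT11.5 was added after seeing the data. Alternatives were edgeR 4.0.16 and DESeq2 1.42.0 on recovered reads, TMM scaling, other filters and pseudocounts, only the groups compared, replicate terms and left-out libraries. The code was tested on simulated data.

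The genes named were the members with the largest changes among those that passed, the 10 smallest p of each F test, the smallest p of each family (given for the averages of light minus dark and the morning comparison; elsewhere only where it adds to the account), and 9 genes fixed by name. The members and lists were chosen with earlier results of these data known. Gene positions and copies come from GENCODE M21, in which all 57 members were found: 9 share 95% or more of at least 80 bases of their 3′ end with an annotated copy (Hnrnpc, Hnrnpf, Hnrnph2, Hnrnpk, Sf3a2, Snrpa, Snrpc, Snrpd1 and Snrpe) and 7 overlap a gene with a mean of at least 10 on the opposite strand (Hnrnpu, Prpf6, Sf3a2, Sf3b3, Snrpa, Snrpd3 and Srsf2), so their counts are uncertain. Promoter windows come from RefSeq on GRCm38.p6. 1 of the genes below the minimum and 1 of the marker genes are not named here.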

Additional observations from a re-analysis of the deposited data

Results flagged for a closer look

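In 168 groups of 4 libraries, over 14 named members, the highest or lowest library was set against the rest of its group by its gap as a share of the group's range (Dixon's test). Chance flags about 1 in 20 groups, and 3 stood out. Srsf7 was at 86.98 in Light ZT3 replicate 3, where the other 3 libraries lay between 132.22 and 138.28. Sf3b3 was at 118.33 in Light ZT7.5 replicate 3, where the others lay between 84.13 and 88.49. Srsf9 was at 457.33 in Light ZT13 replicate 4, where the others lay between 292.01 and 318.35.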

How the results depend on the processing

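No called difference between groups changed sign under the alternatives run. F tests and rhythms carry no sign, so this check did not cover them, nor differences that were not called. Over all alternatives, called single-gene results kept their call in 1200 fits and lost it in 177. Without the libraries under 2 M reads, which leaves 1 library in Dark ZT13 that is assumed to vary like the other groups, the F tests called 5 members in the dark arm and 3 in the light arm, night minus day called 0 in the dark arm, and the morning comparison called 5 in the light arm. With no filter on low values, the light-arm F test called 3 and the light-arm morning comparison 4. With only the groups compared in the fit, the light-arm F test called 1 and light-arm night minus day 0. DESeq2 called 5 light-arm rhythms. The light-dark difference that varies over time called 1 member, Snrpd1, under TMM scaling, a minimum mean of 50, a pseudocount of 5, DESeq2 and only the groups compared. The cause of these changes was not tested. TMM moved the median of a library by -0.018 to 0.015 (log2).

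With single libraries left out, the dark-arm F test called 7 to 12 members, the light-arm F test 3 to 6, the varying difference 0 to 1, night minus day 3 to 3 in the dark arm and 0 to 2 in the light arm, the morning comparison 2 to 4 and 4 to 10, rhythms 5 to 7 and 2 to 5, and the daytime average of light minus dark 1 to 1. Light minus dark at each time, its night average and the difference of night minus day between arms stayed at 0 to 0. Light-arm night minus day called 0 without Light ZT3 replicate 1, Light ZT11.5 replicate 1, Light ZT13 replicate 4 or Light ZT18 replicate 3 and 2 without Light ZT15 replicate 4, and light-arm rhythms were 5 without Light ZT18 replicate 2.

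In their deviations from group means, same-numbered libraries had a mean correlation of 0.021, against -0.0068 for libraries of other numbers. Of 381 same-numbered pairs, 100 correlated above 0.1, and 22 of 57 libraries correlated best with their own number. Whether replicate numbers mark a shared origin was not tested. With a replicate block the F tests called 9 and 5 members, the varying difference 1, night minus day 3 and 1, the morning comparison 4 (Srsf11 in place of Srsf3) and 9, rhythms 6 and 4, the daytime average 1 and every other light comparison 0. In a fit that let replicates 3 and 4 differ from 1 and 2 within each arm, the varying difference called 1. The daytime average, which that fit gives at the level of replicates 1 and 2 only, called 0. Depth limits members near the minimum: those below about 20 rest on few reads in a library.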
